A study of Mus musculus with 8 samples.

Results

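Late-numbered miRNAs, those whose mouse miRBase name carries a number of 1000 or more, were examined among the RISC-bound small RNAs (R-sRNAs) of mouse brain. Members were chosen by name alone, with the letters and arms of a name taken as given and 2 names from the Dlk1-Dio3 miRNA cluster left out. This gave 297 of the 895 miRNA names in the table, represented by 1592 of 47204 distinct read sequences and by 271278 of 38191202 reads. The libraries came from cortex and hippocampus, combined, of 4 5XFADtg Rubicon+/- mice (het) and 4 5XFADtg Rubicon-/- mice (ko), each library from a different animal. Both groups carried the 5XFAD transgene, which is driven by the neuronal Thy1 promoter, so no transgene-free brain was part of the comparison. The Rubicon protein acts as a brake on autophagy, and het mice kept an intact copy of the gene. The mice were females, aged 6 months by the study's account of this comparison and 6 or 8 months by its methods, and the labels give no age. Argonaute complexes were captured from lysate with a GW182 peptide, and the small RNAs bound to them were sequenced.

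miRBase numbers were given out in the order in which miRNAs were registered, so high numbers were mostly assigned from deep sequencing and many of these entries rest on few reads. A canonical miRNA hairpin is cut from its primary transcript by Drosha and then by Dicer, and the arm that enters Argonaute recognises its targets through the seed near its 5′ end. Mirtrons are hairpins in which splicing, not Drosha, makes at least one end, and many late-numbered names belong to this class. In the study's terms, each 6mer seed (positions 2 to 7 of the read) carries a viability score, averaged over 3 lines of mouse cells treated with an siRNA of that seed, and a low score marks a seed that kills cells by targeting survival genes.

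Levels are given as CPM, reads per 1000000 reads of the library, summed over all sequences with the same name. Depth ranged from 509839 reads (het replicate 1) to 19878054 (ko replicate 2), so 1 read was worth between 0.0502 and 1.93 CPM, and only sequences with at least 8 reads over the 8 libraries were listed. Members were seen in 94 to 270 names per library at these depths. The neuronal miRNAs miR-124-3p, miR-9-5p, miR-128-3p and miR-138-5p together held 150911 to 252535 CPM in every library. The 4 epithelial markers (miR-200a-3p, miR-200b-3p, miR-429-3p and miR-183-5p) ranged from 1876 to 6463 CPM in het and from 149 to 671 CPM in ko libraries, without overlap, and their part in the results was not tested. In whole tissue, fewer cells that make a miRNA and less of it per cell cannot be told apart.

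The RefSeq entries (GRCm38.p6) of the members that the results turn on are shown first, because their seeds decide the viability scores described further on. There were RefSeq mature entries for 262 of the 297 names. Capitals mark bases 2 to 8, the seed region.
miR-1249-3p: aCGCCCUUcccccccuucuuca
miR-1839-5p: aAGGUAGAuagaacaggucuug
miR-1983: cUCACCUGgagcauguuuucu
miR-3068-5p: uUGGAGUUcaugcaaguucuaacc
miR-3102-3p: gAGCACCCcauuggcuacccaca
miR-1298-5p: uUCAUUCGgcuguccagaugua
miR-1224-5p: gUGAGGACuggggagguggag
miR-1198-5p: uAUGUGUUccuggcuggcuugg
miR-1981-5p: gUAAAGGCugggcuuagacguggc
miR-7044-3p: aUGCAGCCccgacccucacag
miR-1982-3p: uCUCACCCuauguucucccacag

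Late-numbered names made up 33.2% of all miRNA names but only 0.895% ± 0.283 (SD, n = 8) of miRNA CPM. Their median level was 1.21 CPM against 65.3 CPM for the other 598 names. Of the 297 names, 16 reached a mean of 100 CPM, 43 reached 10 CPM, 162 reached 1 CPM, and the 135 below 1 CPM held 0.580% of the members' CPM. Only 59 members (19.9%) were found in all 8 libraries, compared with 76.3% of the other names. A single member, miR-1249-3p, was among the 100 most abundant names, at rank 49.

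**Figure D1:**
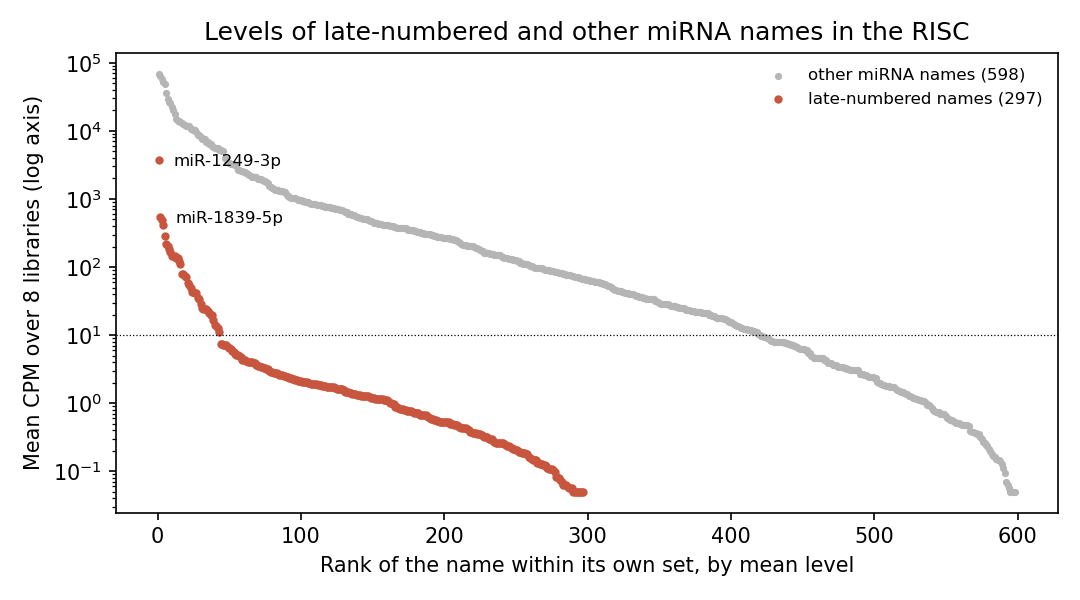
Mean CPM over 8 libraries (log axis) of each miRNA name against its rank within its own set, for 297 late-numbered names (red) and 598 other names (grey), with a dotted line at 10 CPM. The late-numbered curve lies below the other at every rank, starts at miR-1249-3p (3774 CPM) and drops to miR-1839-5p (547 CPM) at the next rank.

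When every library was reduced in expectation to 509839 reads, 94.0 to 147 members would have been seen. The mean was 118 ± 20.9 (SD, n = 4) in het and 132 ± 15.1 (SD, n = 4) in ko, a difference of 13.8 names (exact two-sided permutation test, p = 0.343, adjusted over 9 measures p = 1.0). With 1 library left out the difference ran from 5.93 names (without het replicate 1) to 22.9 names (without het replicate 4). The number of members seen thus did not differ by more than the spread between mice at this depth. The filter of at least 8 reads over the 8 libraries stayed in place, and 52.0% of all reads came from ko replicate 2. Scarce names could therefore be listed through a deep ko library alone, so this count cannot compare the genotypes fairly.

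Most of the members' CPM came from the lowest numbers. The 50 names numbered from 1000 and below 2000 held 79.6% of the members' CPM, with a median of 3.93 CPM, and the 74 names from 3000 and below 4000 held 14.6%, with a median of 1.98 CPM. Names from 6000 and below 7000 (70 names) and from 7000 and below 8000 (73 names) held 2.40% and 2.69%, with medians of 0.708 and 0.654 CPM. The 20 names from 4000 and below 6000 held 0.197%, with a median of 0.54 CPM, and the 10 names of 8000 and above held 0.575%, with a median of 1.51 CPM. Neither the shares nor the medians fell steadily with the number. No name from 2000 and below 3000 was present.

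miR-1249-3p carried 44.0% of the members' CPM, and the 5 and 15 most abundant names carried 64.3% and 83.0%. Its mature sequence lies at chr15:84951545-84951566 on the minus strand (GRCm38), within an annotated exon of 5031439G07Rik. It was at 2309, 4225, 2384 and 5022 CPM in the het libraries and at 2131, 1426, 7625 and 5070 CPM in the ko libraries. The highest and the lowest libraries were both ko, and the groups overlapped throughout. Its reads started almost entirely at one position, as 97.8% of its CPM had the main seed, and its other arm was seen at only 0.265 CPM.

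miR-1839-5p (chr7:81529919-81529940, plus strand) was the next, at 662, 580, 439 and 564 CPM in het and 560, 599, 615 and 354 CPM in ko libraries. In the annotation its hairpin overlaps a scaRNA, a guide RNA of Cajal bodies. miR-1983 (chr13:21896930-21896950, minus strand) lies outside annotated genes, but among tRNA genes only mitochondrial ones were looked for. It was at 417, 640, 478 and 395 CPM in het and 529, 573, 479 and 398 CPM in ko libraries. Both varied less than miR-1249-3p, by 1.87-fold and 1.62-fold between the lowest and the highest library compared with 5.35-fold. The most abundant read of miR-1983 held 25% of its CPM, which was spread over 104 sequences.

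Several of the abundant members sit in other small RNA genes. In the deposited table the main read of 242 members (59.9% of the members' CPM) was assigned to an mRNA. A piRNA was assigned to the main read of 1 member (2.56%). The main read of 8 members was assigned to a snoRNA, and these members held 14.1% of the members' CPM. They included miR-3068-5p, miR-1843a-5p and miR-1843b-5p, the last of which lies in Scarna3a within an intron of Cop1 (chr1:159340362-159340382, plus strand), while miR-1843a-5p lies in Scarna3b (chr12:80391654-80391674, minus strand). snoRNAs and scaRNAs direct chemical modification of other RNAs, and some of them are also cut by Dicer.

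The names miR-1843a-5p and miR-1843b-5p could not be separated by the names in the table. The 5p arms are near-identical, and the most abundant read of each kind is shown with its first base in capitals.
miR-1843a-5p, most abundant read: Catggaggtctctgtctgact
miR-1843a-5p, most abundant read found only in its own hairpin: Tatggaggtctctgtctgact
miR-1843b-5p, most abundant read: Catggaggtctctgtctgactt

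The most abundant read named miR-1843a-5p, at 86.2 CPM, matched the Mir1843b hairpin over its whole length and did not match the Mir1843a hairpin. Such reads made up 132 of the 417 CPM named miR-1843a-5p, in 6 sequences. By name, miR-1843a-5p stood at 417 CPM and miR-1843b-5p at 167 CPM. By exact match, reads found only in hairpin a summed to 212 CPM ± 49.6 (SD, n = 8) and reads found only in hairpin b to 219 CPM ± 45.8 (SD, n = 8), with a above b in 3 of 8 libraries. The order of these copies in the table therefore did not hold when reads were counted by hairpin. No other member with a RefSeq hairpin had a read that matched a different hairpin in full and not its own.

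**Figure D2:**
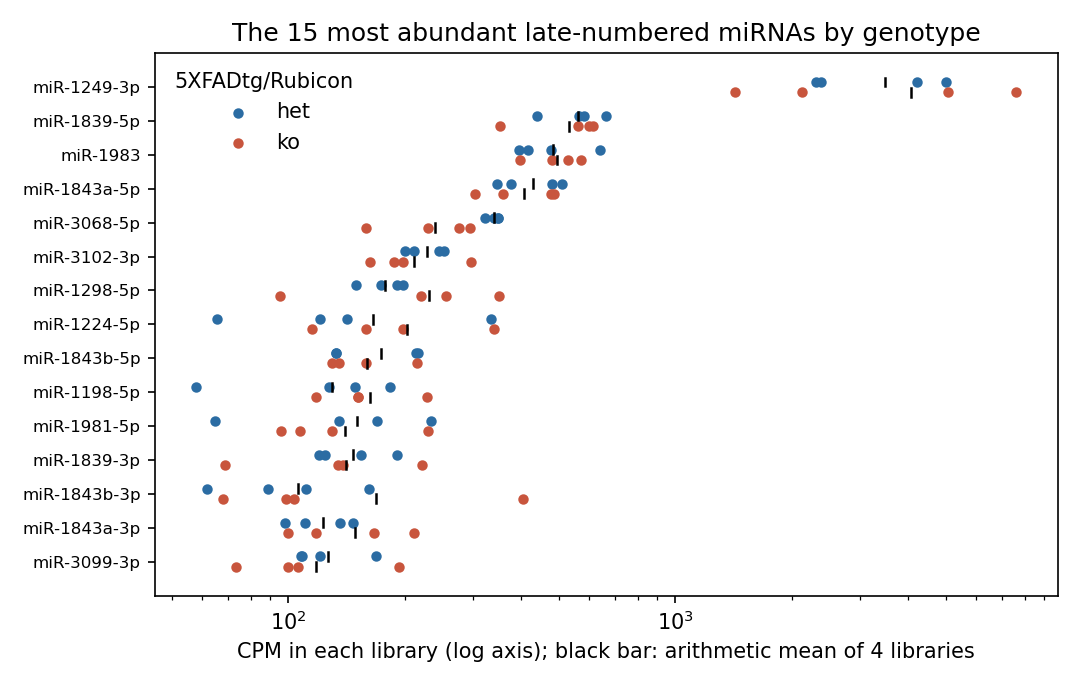
CPM in each library (log axis) of the 15 most abundant late-numbered miRNAs, with the 4 het libraries in blue, the 4 ko libraries in red and black bars at the arithmetic means. Het and ko points overlap for every miRNA shown except miR-3068-5p, whose 4 het libraries (324 to 349 CPM) lie above its 4 ko libraries (159 to 294 CPM).

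Htr2c, the gene of a serotonin receptor, holds a series of miRNAs in its introns, some of them late-numbered. miR-1298-5p (chrX:147064918-147064939, plus strand), in an intron of Htr2c, was the most abundant of them, at 191, 174, 150 and 198 CPM in het and 257, 95.1, 221 and 352 CPM in ko libraries. Its 3p arm was at 28.3 CPM ± 5.71 (SD, n = 8). miR-1264-5p and miR-1264-3p were at 24.3 and 21.3 CPM, and the arms of miR-1912 were at 1.17 and 2.36 CPM. The arms of miR-1264 varied widely, since the 5p arm held between 5.00% and 84.5% of the hairpin's CPM. The lowest share, in ko replicate 4, rested on 1 read of the 5p arm (0.98 CPM). The highest was in het replicate 2, where the 5p arm was at 82.5 CPM. The 5p arm of miR-1298 held 80.8% to 93.0%. Of the 7 arms of the Htr2c miRNAs that were tested, the low-numbered miR-448 and miR-764 included, 0 passed the limma test between genotypes, where 1.3% of all names tested did, so this count is no result about these miRNAs.

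The Dlk1-Dio3 region of chromosome 12 is an imprinted domain with a large miRNA cluster expressed in neurons. A list of its late-numbered miRNAs, fixed by name and not complete for the region, was used. Of the names on it only miR-3072-3p, in an annotated exon of Mirg (chr12:109747928-109747949, plus strand), reached 10 CPM, at 43.3 CPM ± 27.7 (SD, n = 8). It was at 1.93 CPM, or 1 read, in het replicate 1 and between 27.2 and 94.5 CPM elsewhere. The arms of miR-1188 and miR-3070 had means of at most 3.84 CPM, and the highest single library was 8.82 CPM, for miR-3070-5p in ko replicate 4.

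Late-numbered miRNAs often ended where an intron ended. For the 245 members with both a RefSeq mature and hairpin entry, the mature sequence lay within 5 nt of the 3′ end of an annotated intron in 90 (36.7%), inside an intron in 90 (36.7%), over an exon in 37 (15.1%), outside genes in 24 (9.80%) and at an intron start in 4 (1.63%). For the other 464 names so placed, 4 (0.862%) lay at an intron end, 200 (43.1%) inside an intron, 96 (20.7%) over an exon and 160 (34.5%) outside genes. All 90 intron-end members were 3p arms, 73 of them ended exactly on the last intron base, and 74 had numbers from 6000 and below 8000. Their introns had a median length of 348 nt, 41 were shorter than 200 nt, and in 11 the hairpin spanned the intron. These members were scarce, with a median of 1.26 CPM, and held 4.05% of the members' CPM.

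The reads of these intron-end members had a further feature in common, which was noticed in the reads and was not part of the plan. Many ended with the last base of the intron followed by a single U (T in the reads) that is not in the genome, since only arms whose next exon starts with A, C or G were counted. Below, the RefSeq mature entry of 6 of them, chosen after their values were seen, is followed by the most abundant read, with the added base in capitals. The intron host and the position of the mature sequence (GRCm38) stand beside each name.
miR-1224-3p, Vwa5b2, chr16:20604516-20604536, plus strand: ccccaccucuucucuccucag, read as ccccacctcttctctcctcagT
miR-3547-3p, Baiap3, chr17:25245551-25245571, minus strand: ugagcaccaccccucucucag, read as tgagcaccacccctctctcagT
miR-7044-3p, Rasgef1a, chr6:118085243-118085263, plus strand: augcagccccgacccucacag, read as atgcagccccgaccctcacagT
miR-6944-3p, Dbn1, chr13:55477681-55477703, minus strand: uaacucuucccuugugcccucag, read as taactcttcccttgtgccctcagT
miR-7052-3p, Josd2, chr7:44470391-44470411, plus strand: gcucugcccccuccuucccag, read as gctctgccccctccttcccagT
miR-6988-3p, Syvn1, chr19:6051371-6051392, plus strand: ugaccucuguaucuccugccag, read as tgacctctgtatctcctgccagT

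The added U was present in 72.8% of the CPM of miR-1224-3p, 62.2% of miR-3547-3p, 63.4% of miR-7044-3p, 37.0% of miR-6944-3p, 84.5% of miR-7052-3p and 88.3% of miR-6988-3p. It was rarer in others, with 11.4% for miR-1981-3p, 8.90% for miR-7047-3p, 7.88% for miR-1982-3p and none of the CPM of miR-7080-3p. Of 49 intron-end members with at least 1 CPM and a known next base, 29 carried the single U on more than 25% of their CPM and 8 on none, with a median of 41.1%.

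Over 83 intron-end members, 47.3% ± 7.70 (SD, n = 8) of CPM ended with a single added U. The share was 30.3%, 43.8%, 55.8% and 51.5% in the het libraries and 47.6%, 50.9%, 47.8% and 50.5% in the ko libraries. The lowest value, in het replicate 1, rested on 142 reads (95% Wilson interval 23.3% to 38.3%, for counting error only, as for all such intervals here), and the others on 368 to 4962 reads. In the same libraries 5.24% ± 0.290 (SD, n = 8) of the CPM of the other 139 placed members and 4.17% ± 0.337 (SD, n = 8) of that of 459 other miRNAs away from intron ends carried a single added U. The share in intron-end members was higher than in these other miRNAs by 43.1 percentage points ± 7.74 (SD), in 8 of 8 libraries. No test is given for this difference, since it was noticed in the same reads. A single added A was not more frequent, at 2.65% ± 1.22 (SD, n = 8) in intron-end members and 5.28% ± 0.333 (SD, n = 8) in the other miRNAs. The 3 low-numbered names at an intron end that could be measured had 33.9% ± 8.58 (SD, n = 8) of CPM with an added U.

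**Figure D3:**
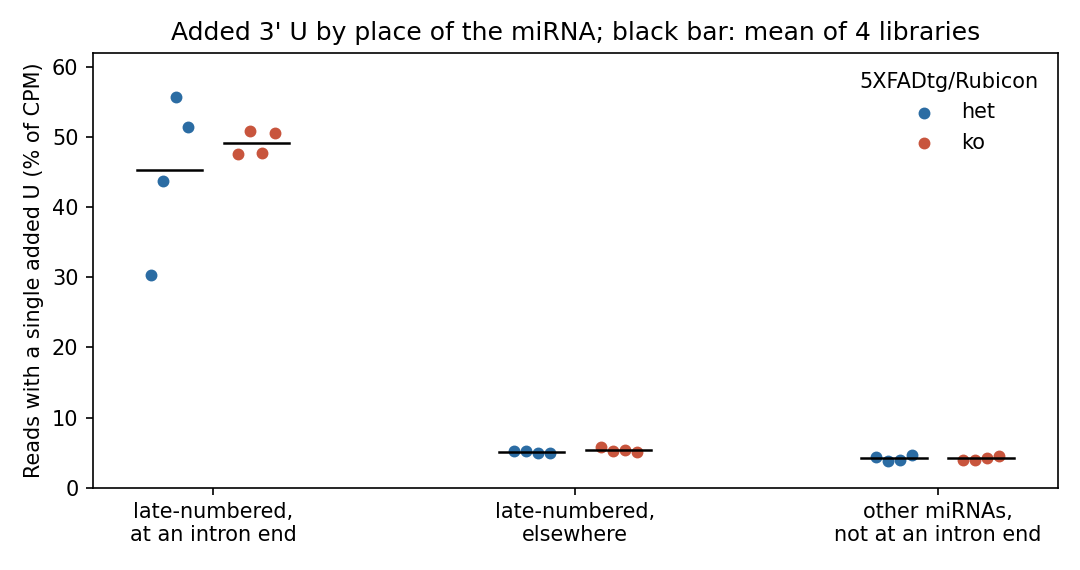
Share of CPM with a single untemplated 3′ U in each library (points; het blue, ko red; black bars are means of 4 libraries) for late-numbered miRNAs at an intron end, other late-numbered miRNAs and other miRNAs away from intron ends. All 8 libraries lie at 30.3% or above in the first set and below 6% in the others.

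The templated part of these reads stopped on the last intron base for 69.1% of CPM, 1 base before it for 15.2% and 2 bases before it for 9.03%, and ran into the exon for 0.260%. Of the CPM that stopped on the last intron base, 67.1% carried the single U, compared with 2.98% of the CPM that stopped elsewhere. The added base thus went with the position at which the templated part stopped.

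**Figure D4:**
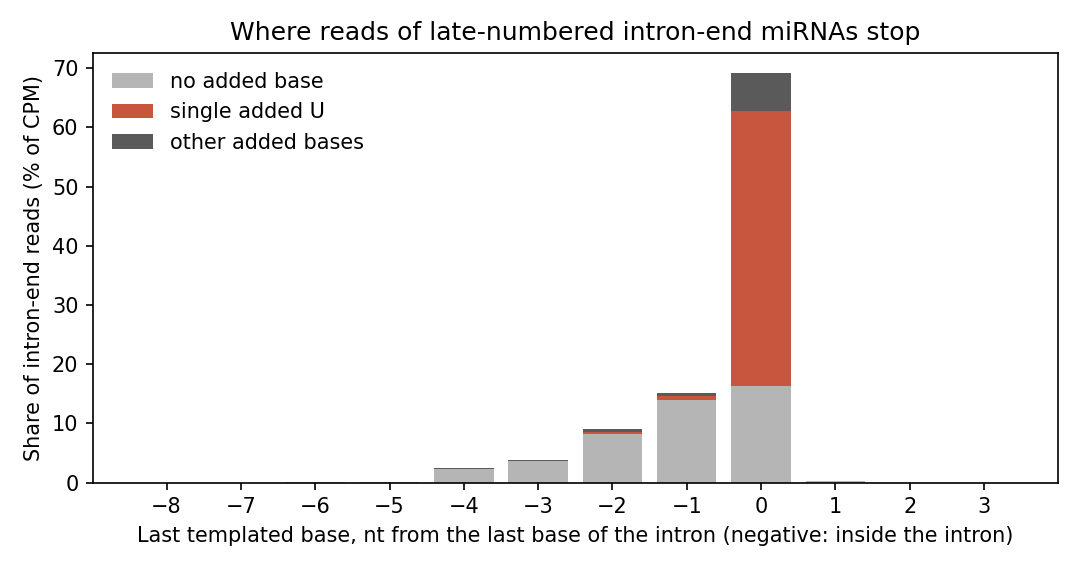
Share of the CPM of intron-end members (% of CPM, mean of 8 libraries) by the distance in nt of the last templated base from the last base of the intron, stacked by what follows it. The bar at 0 holds 69.1% of CPM, and the single added U (red) lies almost entirely in this bar.

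The added U did not differ between genotypes by more than the spread between mice. It was 45.3% ± 11.2 (SD, n = 4) in het and 49.2% ± 1.77 (SD, n = 4) in ko libraries, a difference of 3.89 percentage points (exact two-sided permutation test, p = 0.686). Without het replicate 1 the difference was -1.13 percentage points.

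Weighted by CPM, reads of late-numbered miRNAs were about as sharply defined at the 5′ end as those of other miRNAs. The main seed of each name held 93.2% ± 1.24 (SD, n = 8) of the members' CPM and 93.2% ± 0.458 (SD, n = 8) of that of the other names (exact sign-flip permutation test, two-sided p = 0.906, adjusted over 4 differences p = 0.906). This rested on miR-1249-3p, without which the members' value was 90.1% ± 0.711 (SD, n = 8), a difference of -3.07 percentage points from the other names (p = 0.00781, exact permutation). For names of 1 to 1000 CPM the values were 90.0% ± 0.732 (SD, n = 8) for members and 91.0% ± 0.422 (SD, n = 8) for other names. With each name of at least 1 CPM weighted equally they were 88.4% ± 1.95 (SD, n = 8) and 90.0% ± 0.536 (SD, n = 8). Precision by name was lowest, among the most abundant 15, for miR-1843b-5p, with 63.9% of CPM on its main seed. Of 32 members that had at least 10 CPM and could be placed on a hairpin, 29 had a main read that started at the annotated 5′ end.

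The sign-flip tests of this paragraph and the one before run over libraries that hold the same miRNAs. They therefore speak of these names and not of a larger set. Reads of a name were spread over several sequences, which differ at either end or by added bases. The most abundant read of each name carried 44.2% ± 1.89 (SD, n = 8) of the members' CPM and 47.2% ± 1.29 (SD, n = 8) of that of the other names, a difference of -3.09 percentage points with the same sign in 7 of 8 libraries (exact sign-flip permutation test, two-sided p = 0.0156, adjusted p = 0.0208). Between members it ranged from 91.0% for miR-3072-3p to 16.7% for miR-3099-3p among those with at least 10 CPM. The difference was -7.83 percentage points without miR-1249-3p and -8.11 for names of 1 to 1000 CPM (both p = 0.00781, exact sign-flip permutation). With each name of at least 1 CPM weighted equally it was 4.02 percentage points, the other way (p = 0.0234, exact sign-flip permutation), so the direction depends on the weighting. The main read was picked in the same data, and sequences with fewer than 8 reads over the libraries were not listed. Scarce names count fully under equal weights, and the part of this filter in their shares was not tested. Mean read length was 21.62 nt ± 0.0232 (SD, n = 8) for members and 21.74 nt ± 0.0421 (SD, n = 8) for other names, lower in 8 of 8 libraries, with a difference of -0.122 nt (p = 0.00781, adjusted p = 0.0156, exact sign-flip permutation). Without miR-1249-3p the difference was -0.0223 nt (p = 0.227, exact permutation). For names of 1 to 1000 CPM on both sides, which also leaves it out, the difference was -0.109 nt (p = 0.00781, exact sign-flip permutation). With each name of at least 1 CPM weighted equally, members had 21.84 nt ± 0.0547 (SD, n = 8) and other names 21.84 nt ± 0.0210 (SD, n = 8). The length difference thus depends on the names compared and on their weights.

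Late-numbered miRNAs differed from the others in base composition. The median GC content of the most abundant read was 54.5% over the members and 45.5% over the other names. Reads starting with A made up 53.6% of the members' CPM, mainly miR-1249-3p, against 18.1% for the other names, and reads starting with U made up 23.8% against 74.4%. By name, 18 of the 43 members with at least 10 CPM started with U, 12 with C, 7 with A and 6 with G.

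The level of members with GC-rich reads varied between libraries of the same genotype. For the 20 tested members with a GC content of at least 55%, the median deviation from the genotype mean on the log2 scale was -0.33, 0.36, -0.46 and 0.66 in the het and -0.32, -0.61, 0.84 and 0.09 in the ko libraries. For the 107 other miRNAs of at least 55% GC it was -0.04, 0.03, -0.18 and 0.30 in the het and -0.14, -0.20, 0.48 and -0.10 in the ko libraries. Both sets were highest in ko replicate 3 and het replicate 4, but in het replicates 1 and 2 the other miRNAs stayed near 0 where the members did not. Below 55% the 23 tested members lay between -0.18 and 0.20 and the 313 other miRNAs between -0.15 and 0.12. miR-1249-3p, with a GC content of 63.6%, had its highest values in ko replicate 3, ko replicate 4 and het replicate 4. The part of base composition in these levels was not tested.

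The seeds of late-numbered miRNAs had low viability scores. Weighted by CPM, the mean seed viability was 47.9 ± 1.98 (SD, n = 8) for members and 56.5 ± 0.789 (SD, n = 8) for other names, lower in 8 of 8 libraries, with a difference of -8.58 points (exact sign-flip permutation test, two-sided p = 0.00781, adjusted p = 0.0156). This test runs over libraries that hold the same miRNAs, so it speaks of these names and not of a larger set. Without miR-1249-3p, whose seed CGCCCU has a score of 39.0, the mean was 54.1 ± 0.789 (SD, n = 8), and the difference -2.36 points (p = 0.00781, exact permutation). For names of 1 to 1000 CPM on both sides, the means were 54.2 ± 0.796 (SD, n = 8) for members and 58.9 ± 0.847 (SD, n = 8) for other names. With each name of at least 1 CPM weighted equally, the scores were 51.2 ± 0.709 (SD, n = 8) and 59.3 ± 0.197 (SD, n = 8). By name, the main seed scored under 40 in 101 members (34.0%) and in 139 other names (23.2%), and over 80 in 30 members (10.1%) and 19.9% of other names.

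The share of CPM under a score of 40 was 58.6% ± 7.53 (SD, n = 8) in members and 12.1% ± 1.46 (SD, n = 8) in other names. miR-1249-3p lies just below this threshold, as does miR-3085-3p at 39.0, while miR-1298-3p lies on it and outside the class. Without miR-1249-3p the share was 30.3% ± 2.40 (SD, n = 8). Of the 43 members with at least 10 CPM, 16 had a main seed under 40, and 4 had one under 20, namely miR-3547-3p (GAGCAC, 10.8), miR-7080-3p (AGGCUC, 13.2), miR-7044-3p (UGCAGC, 19.0) and miR-1224-3p (CCCACC, 19.3). All 4 were intron-end 3p arms. The highest scores among the abundant members were those of miR-1843a-5p and miR-1843b-5p, which share the seed AUGGAG (87.6).

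Most abundant members did not share their seed with better known miRNAs. Among the 43 members with at least 10 CPM, 6 had a main seed that was also the main seed of another miRNA, and 34 carried over 50% of all CPM with their seed. miR-1249-3p carried 97.9% of the CPM with CGCCCU and miR-1983 98.9% of that with UCACCU. In contrast, miR-3102-3p has the seed of the miR-29 family, AGCACC, and carried 0.456% of its CPM, against 23603 CPM from miR-29a-3p. miR-3106-5p has the seed of miR-24-3p, GGCUCA, and carried 0.362% of its CPM, against 11410 CPM from miR-24-3p. miR-3085-3p shared CUGGCU with miR-149-5p (944 CPM) and carried 4.22% of it. miR-1839-5p carried 18.8% of the CPM with AGGUAG, where reads named let-7c-5p, at 652 CPM, were the largest other source.

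The design asks whether loss of Rubicon in 5XFADtg mice went with a change in these miRNAs. No late-numbered miRNA passed the test. limma on log2(CPM + 1) over the 463 names with a mean of at least 10 CPM called 0 of the 43 members tested at an adjusted p under 0.05, while 1.3% of all names tested were called. One member, miR-3106-5p, had an unadjusted p under 0.05, where 7.34% of all names did. edgeR on recovered reads called 0 members, with 1 at an unadjusted p under 0.05, against 0.864% and 5.18% of all names. DESeq2 called 0, with 2 at an unadjusted p under 0.05, against 1.94% and 6.48% of all names. Of the 43, 23 had a positive and 20 a negative log2 fold change (ko against het), with a median of 0.00 against -0.09 for all names. When libraries were centred on their medians the median over all names became 0.13, and 33 members were then positive and 10 negative.

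miR-3106-5p was the member with the smallest p. It was at 32.8, 86.0, 70.3 and 63.4 CPM in het and 8.40, 39.1, 11.2 and 26.5 CPM in ko libraries. The highest ko library lay above the lowest het library, so the groups overlapped. On the log2 scale it differed by -1.69 ± 0.50 (SE), with an adjusted p of 0.203 in limma. Its most abundant read, with the 6mer seed in capitals, was tGGCTCAtttagaagcagcca.

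miR-3068-5p was the only tested member whose groups did not overlap, where 3.46% of all names tested had groups apart. It was at 349, 349, 340 and 324 CPM in het and 230, 294, 159 and 276 CPM in ko libraries. The log2 difference between ko and het was -0.54 ± 0.26 (SE), with 0.613 as the adjusted p in limma, and its 3p arm did not follow it, at 48.3 CPM ± 10.4 (SD, n = 4) in het and 49.1 CPM ± 16.3 (SD, n = 4) in ko libraries. The other members with the smallest p on the negative side were miR-3059-5p (log2 fold change -0.53), miR-3085-3p (-0.54) and miR-7689-3p (-0.33), with adjusted p of 0.755 to 0.948 in limma. Without ko replicate 4 the log2 difference of miR-3085-3p was -0.054 and that of miR-3059-5p -0.33, and without het replicate 2 that of miR-7689-3p was -0.22. For miR-3068-5p it was -0.36 without ko replicate 3.

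On the positive side the smallest p belonged to miR-7044-3p. This intron-end miRNA was at 3.86, 16.5, 10.5 and 28.9 CPM in het and 22.8, 19.2, 37.0 and 40.2 CPM in ko libraries, a log2 difference of 1.17 ± 0.55 (SE; adjusted p in limma, 0.613). miR-1982-3p, at the end of an intron of Oaz1, which encodes an inhibitor of polyamine synthesis, had no read in het replicate 1, where 3 reads correspond to 5.79 CPM. In the other het libraries it was at 3.44, 7.38 and 21.8 CPM, and in the ko libraries at 9.92, 8.99, 20.2 and 29.4 CPM (log2 difference 1.59 ± 0.85, SE; adjusted p in limma, 0.696). Without het replicate 1 the log2 difference was 0.70 for miR-7044-3p and 0.78 for miR-1982-3p, and with pseudocounts of 0.1 and 10 that of miR-1982-3p was 2.47 and 0.65. miR-6769b-3p, miR-3072-3p and miR-1198-5p followed, with log2 fold changes of 0.99, 0.81 and 0.40 and limma adjusted p of 0.830 to 0.975. Without het replicate 1 these became 0.40, -0.21 and 0.056, so the sizes on the positive side rested largely on that shallowest library. For miR-6769b-3p and miR-3072-3p the highest library of each genotype was ko replicate 3 and het replicate 4, in which the GC-rich members were highest.

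**Figure D5:**
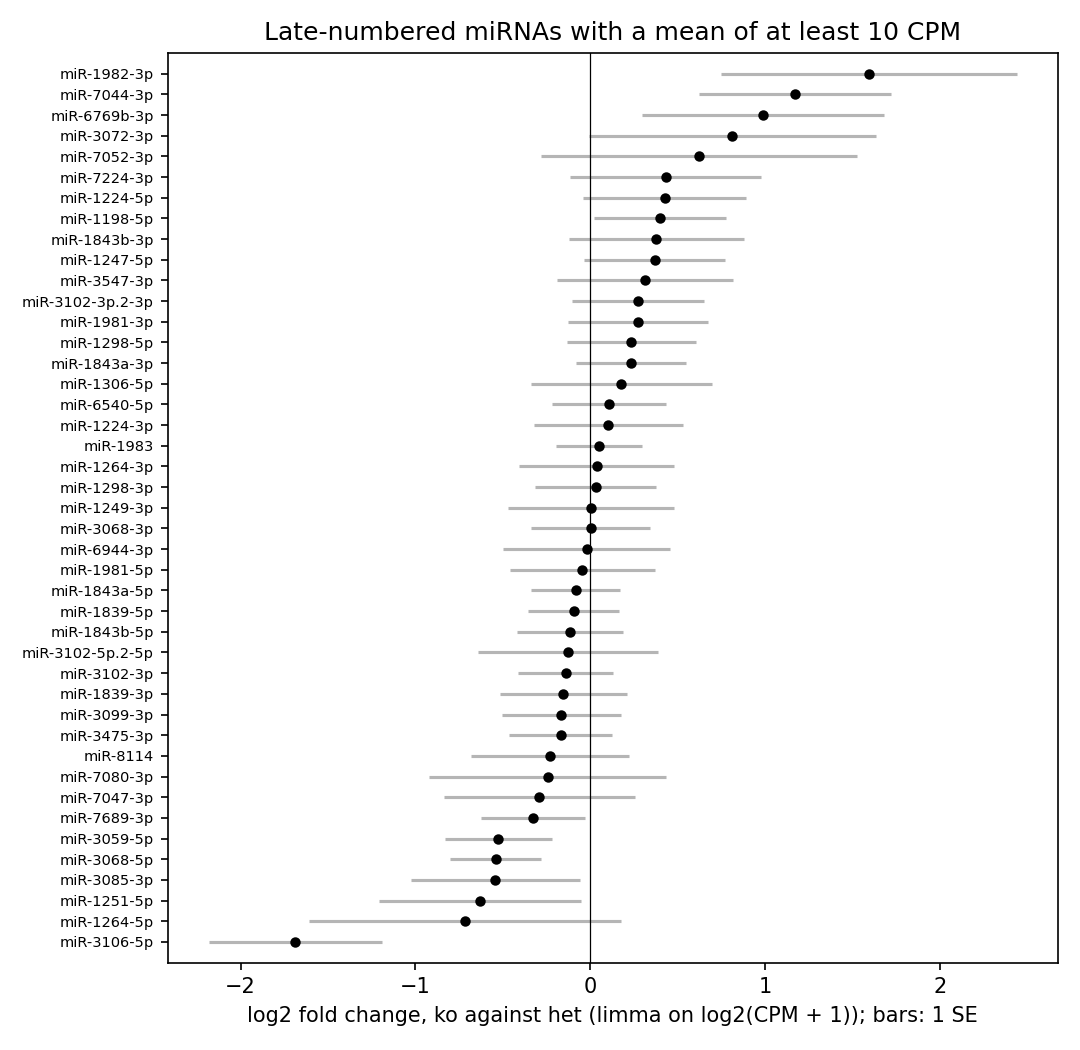
log2 fold change (ko against het, limma on log2(CPM + 1)) of the 43 late-numbered miRNAs that were tested, with bars of 1 SE. Values run from -1.69 for miR-3106-5p to 1.59 for miR-1982-3p, and most bars cross 0.

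Summed over all members, the level was 8298 CPM ± 1956 (SD, n = 4) in het and 8863 CPM ± 3613 (SD, n = 4) in ko libraries (exact two-sided permutation test, p = 0.971, adjusted over 9 measures p = 1.0). The highest sum, 13779 CPM in ko replicate 3, and the lowest, 5853 CPM in ko replicate 2, were both from ko mice. Mean read length was 21.62 nt in both genotypes, the main seed held 93.2% of CPM in both, and mean seed viability was 48.0 ± 1.60 (SD, n = 4) in het and 47.8 ± 2.57 (SD, n = 4) in ko libraries. The share of CPM under a score of 40 was 58.3% ± 5.56 (SD, n = 4) in het and 58.9% ± 10.1 (SD, n = 4) in ko libraries, and that over 80 was 6.99% ± 1.96 (SD, n = 4) and 6.53% ± 2.61 (SD, n = 4). The adjusted p of all 9 per-library measures was 1.0 (exact permutation tests), and with 4 mice against 4 the smallest p is 0.0286.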

How the data were processed

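Small RNAs bound to Argonaute were sequenced from 8 brains (Ago-RP-Seq). The authors processed the reads with their SPOROS pipeline, with Trim Galore named in the submitters' processing notes, and deposited 1 table of read sequences with CPM per library, the best small RNA matches and a seed viability score. The score was deposited by the authors as a mean over 3 mouse cell lines and was not measured in these mice. The genome build of the table is not given in the sources used here, and mRNA matches carry an mm9 tag, so sequences were matched to RefSeq GRCm38.p6 entries by name and sequence only, with places from the GENCODE annotation of GRCm38. A further deposited column of totals was not used.

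CPM were summed per name. Multiplying the CPM by the library's total returned whole reads, within 0.1 reads, for 100.0% of values, with 509839 to 19878054 reads per library. The main test was limma 3.58.1 on log2(CPM + 1) for names with a mean of at least 10 CPM, ko against het, with Benjamini-Hochberg adjustment. edgeR 4.0.16 and DESeq2 1.42.0 were run on the recovered reads. Per-library measures were compared by exact two-sided permutation over the 70 assignments of libraries, and members with other miRNAs by exact sign flips over 256 patterns (scipy 1.17.1). Other pseudocounts, filters, centring, a replicate block, equal weights for names, and leaving out libraries were tried. The fitting code was tested on simulated data. Members named are the 15 most abundant, the 5 with the smallest p in each direction and members of the Htr2c and Dlk1-Dio3 lists of at least 10 CPM, while other names are examples chosen after their values were seen. The members and lists were chosen with earlier results of these data known. Each library came from a different mouse, and replicate numbers do not mark a shared animal. A read was placed on a hairpin by at least 15 templated bases, and a mature sequence within 5 nt of an intron's end was counted as at that end.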

Additional observations from a re-analysis of the deposited data

Results flagged for a closer look

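In 3 of 72 groups of 4 libraries, 1 library stood far from the other 3, where chance alone gives about 1 in 20 such groups. miR-1843b-3p was at 405.601 CPM in ko replicate 3 and between 68.0 and 104 CPM in the other ko libraries. miR-3059-5p was at 58.787 CPM in ko replicate 4 and between 97.5 and 103 CPM in the other ko libraries. miR-1264-5p was at 82.531 CPM in het replicate 2 and between 5.79 and 18.8 CPM in the other het libraries.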

How the results depend on the processing

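No late-numbered miRNA was called in any of the 17 settings, and of 442 fold changes of the 26 named members under alternatives, 52 changed sign, with 11 members keeping it throughout. The log2 fold changes that turned positive under median centring were miR-1839-5p 0.13, miR-1843a-5p 0.14, miR-3102-3p 0.082, miR-1843b-5p 0.11, miR-1981-5p 0.18, miR-1839-3p 0.068, miR-3099-3p 0.055. With edgeR they were miR-1839-5p 0.049, miR-1843a-5p 0.035, miR-3102-3p 0.0082, miR-1981-5p 0.032, miR-1839-3p 0.070, miR-3099-3p 0.013, and with DESeq2 miR-1839-5p 0.067, miR-1843a-5p 0.045, miR-3102-3p 0.021, miR-1843b-5p 0.0026, miR-1981-5p 0.052, miR-1839-3p 0.087, miR-3099-3p 0.026. Without ko replicates 1 and 2, an alternative chosen after seeing the data, they became miR-1983 -0.12, miR-1981-5p 0.12, miR-3099-3p 0.20, miR-1264-3p -0.21, miR-1298-3p -0.038. Ko minus het differences changed sign without miR-1249-3p for the summed level (-13.8 CPM), the share of miRNA CPM (-0.00413), length (-0.00808 nt), the main seed's share (-0.0383) and the share under a score of 40 (-0.218). With equal weights they were -0.032 nt for length and -0.218 for the main seed's share. With sequences of at least 80 reads they were -0.064 for the main seed's share and 0.0951 for the main read's share. Members whose main read was assigned to a snoRNA, piRNA or tRNA were also left out. The differences were then 0.0648 for the main read's share and -0.269 for the share under 40. Without ko replicates 1 and 2 the difference in the main read's share was 1.99. Against other miRNAs, the length difference was 0.000526 nt with equal weights, -0.0223 nt without miR-1249-3p and -0.109 nt for names of 1 to 1000 CPM. The difference in the main seed's share was -0.942 for names of 1 to 1000 CPM, -1.53 with equal weights and -3.07 without miR-1249-3p, and that in the main read's share was 4.02 with equal weights and -1.73 without ko replicates 1 and 2. The lower seed viability kept its direction and a p under 0.05 in all settings run, and the added U, noticed in the same reads and given without a test, kept its direction. With each library left out in turn, log2 fold changes of members that changed sign ranged from -0.40 to 0.40 for miR-1249-3p, from -0.21 to 0.090 for miR-1839-5p, from -0.037 to 0.19 for miR-1983, from -0.18 to 0.046 for miR-1843a-5p, from -0.014 to 0.61 for miR-1298-5p, from -0.27 to 0.0038 for miR-1843b-5p, from -0.40 to 0.21 for miR-1981-5p, from -0.41 to 0.15 for miR-1839-3p, from -0.17 to 0.69 for miR-1843b-3p, from -0.43 to 0.028 for miR-3099-3p, from -0.21 to 1.29 for miR-3072-3p, from -0.18 to 0.32 for miR-1264-3p, from -1.26 to 0.18 for miR-1264-5p, from -0.12 to 0.13 for miR-1298-3p. In the same way, the differences ranged from -1074 to 1568 for summed CPM, from -0.115 to 0.162 for the share of miRNA CPM, from -0.0128 to 0.00934 for length, from -0.469 to 0.704 for the main seed's share, from -0.913 to 0.684 for the main read's share, from -1.16 to 0.61 for seed viability, from -2.37 to 4.27 for the share under 40, from -1.71 to 0.376 for the share over 80, from -0.263 to 0.366 for members minus others in the main seed's share, from -1.13 to 7.37 for the added U.

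Same-numbered het and ko libraries deviated from their group means with correlations of 0.038, 0.291, -0.182 and 0.252. Differently numbered libraries were not compared in this way, so shared handling by replicate number was not tested. With the replicate block limma called 10 of 463 names, against 6 without it, and 0 members, with a smallest member adjusted p of 0.0538 (miR-3106-5p). DESeq2 called 9 names and edgeR 4, and with 1 library left out limma called 4 to 9. Where a result changed with a setting, the cause was not tested. Depth limits the scarce members, since 3 reads correspond to between 0.151 and 5.79 CPM, depending on the library.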
